A study of Homo sapiens with 6 samples.

Results

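The 7 genes described here encode 4 high mobility group (HMG) proteins, HMGB1, HMGB2, HMGB3 and HMGN2, and 3 proteins of the nuclear lamina, LMNB1, LMNB2 and LBR. They were chosen as genes whose loss is tied to cell-cycle exit and senescence, and were found by exact gene symbol. All 7 are among the 6831 genes of the authors' deposited table. The cells were MOLM-13, an established line of human acute myeloid leukaemia labelled wild type, given 50 nM DEG-35 or the solvent DMSO for 24 h. DEG-35 is named by the study as a degrader of the transcription factor IKZF2 and of the kinase CK1A. There were 3 RNA-seq libraries of DEG-35 cells and 3 of DMSO cells, and the study asked which genes DEG-35 regulates.

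HMGB proteins bind DNA through HMG boxes, bend it and loosen chromatin, and HMGN proteins bind nucleosomes and compete with linker histones. B-type lamins form a filament meshwork under the inner nuclear membrane, and LBR, the lamin B receptor, anchors that meshwork and heterochromatin to the membrane. Loss of lamin B1 and of nuclear HMGB proteins is a widely used marker of senescent cells, known mainly from fibroblasts. Transcripts of several of these genes are also more abundant in dividing than in resting cells.

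The authors' deposited table holds genes that passed an adjusted p of 0.05, each with its log2 fold change, its p-value and that adjusted p. It has no value per library, so levels in single libraries, the depth and the overlap of the groups could not be given. The header names no numerator, and all values were read as DEG-35 over DMSO. With the other order every direction would turn round. Errors are standard errors (SE) worked back from the fold change and p-value of a gene. Whether the 3 libraries of a group were separate cultures is not in the labels, so the spread behind the p-values may be technical. In bulk RNA a lower value cannot tell fewer cells with a transcript from less transcript per cell.

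All 7 genes fell with DEG-35. The adjusted p-values imply 15064 genes tested, of which 45.3% passed in either direction, 24.0% as lower and 21.4% as higher. The 7 log2 fold changes ran from -2.12 to -0.92 with a median of -1.38, against a median of -0.45 over all 3613 lower genes of the authors' deposited table. A log2 fold change of -1 or less was reached by 6 of the 7, against 4.08% of all genes tested. LMNB2 was the exception. The 7 were proposed with earlier results of these data known, so their shared direction is a description.

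**Figure D1:**
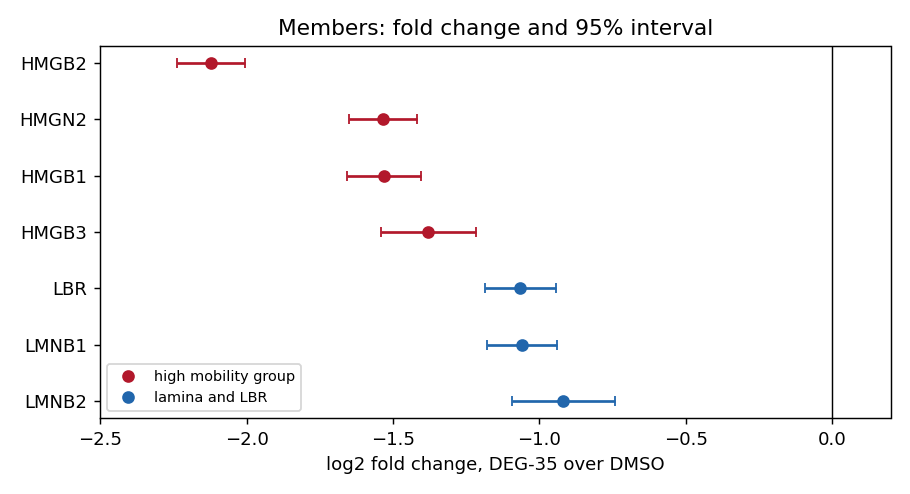
Log2 fold change (DEG-35 over DMSO) of the 7 genes, with 95% intervals from the implied SE (n = 3 libraries per group). Points for the HMG genes (red) lie between -2.12 and -1.38, and those for the lamina genes (blue) between -1.06 and -0.92.

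HMGB2, an HMG-box protein abundant in proliferating cells, fell most. In the authors' deposited table its log2 fold change was -2.12 ± 0.0592 (implied SE, n = 3 per group, adjusted p = 1.08e-277), which is 4.35-fold lower. That leaves 23.0% of the DMSO level in DEG-35 cells, with a 95% interval of -2.24 to -2.00 on the log2 scale. By p-value HMGB2 was the 7th gene of the whole table, and its fall was larger than that of 96.1% of the lower genes.

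HMGB1, the family member that also acts as an extracellular danger signal when released, was 2.89-fold lower. The authors' deposited table gave it a log2 fold change of -1.53 ± 0.0639 and an adjusted p of 1.11e-124, with an interval of -1.66 to -1.41. HMGB3, the X-linked member expressed in haematopoietic progenitors, was 2.60-fold lower, at -1.38 ± 0.0827 in the authors' deposited table (adjusted p = 8.31e-61). Its interval of -1.54 to -1.22 overlaps that of HMGB1 and lies apart from that of HMGB2.

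HMGN2, a nucleosome-binding protein with no HMG box, stood beside HMGB1. Its log2 fold change in the authors' deposited table was -1.53 ± 0.0593 (adjusted p = 5.61e-145), or 2.89-fold lower. The difference of HMGB1 minus HMGN2 was 0.00, with bounds of -0.24 and 0.24 on the log2 scale. These bounds use the sum of both SEs, the largest SE a difference of 2 genes can have whatever their correlation. They are therefore wider than the true interval and are not a test.

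The 3 lamina genes fell less and lay close together. LMNB1, which encodes lamin B1, was at -1.06 ± 0.0609 (2.08-fold lower, adjusted p = 6.35e-66) in the authors' deposited table. LBR, both a lamin B receptor and a sterol reductase, was at -1.06 ± 0.0623 (2.09-fold lower, adjusted p = 8.37e-64) in the same authors' deposited table. LMNB2, which encodes lamin B2, was at -0.92 ± 0.0896 (1.89-fold lower, adjusted p = 2.82e-23) in the authors' deposited table. In DEG-35 cells 48.0% of the DMSO level remained for LMNB1, 47.8% for LBR and 52.9% for LMNB2. The fall was larger than that of 84.1% of the lower genes for LMNB1, of 84.3% for LBR and of 81.0% for LMNB2. LMNB1 minus LMNB2 was -0.14, with bounds of -0.44 and 0.15, so a difference between the B-type lamins was not resolved.

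**Figure D2:**
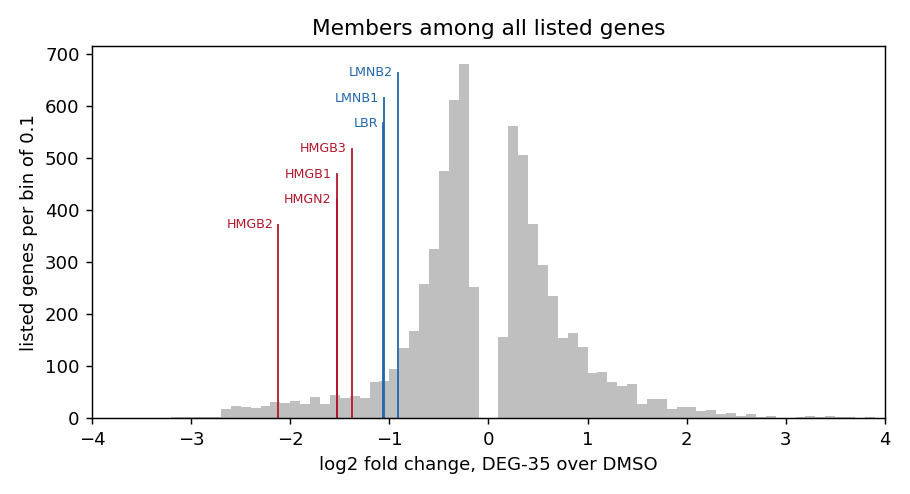
Number of listed genes per bin of 0.1 in log2 fold change (DEG-35 over DMSO), with the 7 genes as lines and the extremes of the axis cut off. The gap around 0 arises because the table holds only genes past the threshold. All 7 lines lie left of the median of the lower genes, -0.45.

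Among the 7 genes, the HMG genes lay apart from the lamina genes. The split did not extend to the relatives described below. HMGA1, HMGA2 and HMGN1 fell less than all 3 lamina genes, and HMGN5 fell about as much as LMNB2. Of the listed lamina relatives, TMPO alone fell more than HMGB1 and HMGN2. Of the 21 pairs among the 7 genes, 15 had 95% intervals that did not overlap. These were all 12 pairs of an HMG with a lamina gene and the 3 pairs of HMGB2 with another HMG gene. The closest of the 12 were HMGB3 and LBR, with a difference of -0.31 and bounds of -0.60 and -0.03. None of the 3 pairs within the lamina genes was apart. A common shift of all fold changes leaves these differences as they are. With 0.3 added to every log2 fold change, HMGB2 would stand at -1.82 and LMNB2 at -0.62, and all 7 would stay lower.

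**Figure D3:**
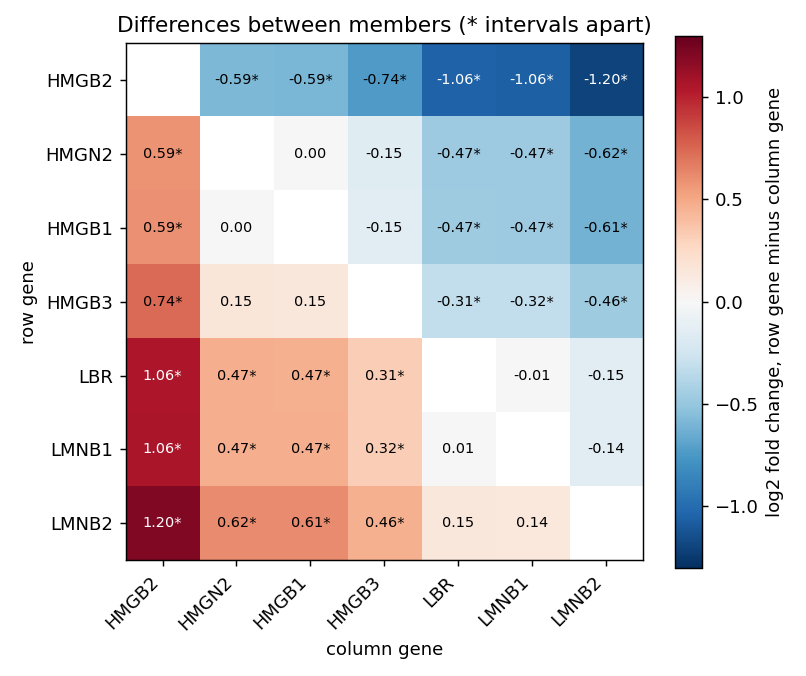
Differences in log2 fold change between the 7 genes (row gene minus column gene), ordered by fold change, where an asterisk marks pairs whose 95% intervals do not overlap. HMGB2 is apart from every other gene by 0.59 or more, and the lamina genes LBR, LMNB1 and LMNB2 are not apart from each other.

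Promoter sequence is given for genes that moved together, because CCAAT boxes and CHR elements (cell cycle genes homology regions) recur in promoters of cell cycle genes. RefSeq windows (GRCh38.p14) from 250 bases before to 50 after a start were searched for 6 of the 7 genes, all but HMGB2, with 10 windows in all. The motifs searched on both strands were CCAAT, CHR as TTTGAA or TTCGAA, and E2F as TTTCCCGC, TTTGGCGC, TTTCGCGC or TTTGCCGC. No 2 matches overlapped in the windows of these genes. CCAAT was in 5 of the 10 windows, from HMGB1, HMGB3, HMGN2 and LMNB1, against 34.6% of 35116 windows of all genes. The CHR was in 3 windows, of HMGB1, HMGB3 and LMNB2, against 16.4% of all windows. Counted from the start, these matches begin at -246, -172 and -246, in that order. The HMGB1 match lies in a window not printed below. No E2F word was in a window of these 6 genes, against 3.31% of all windows. One HMGB1 window and one HMGB3 window had 3 CCAAT matches each, a number reached or passed by 3.26% of all windows. LBR had no match in its window. A match is a run of letters and says nothing of binding, and windows with several starts of a gene can share sequence. The 4 stretches below, 5′ to 3′ on the gene's strand, show these matches in capitals and leave out bases annotated as exons of the gene in GENCODE 29. They lie at chr13:30465966-30466186 (minus strand) for HMGB1, chrX:150983085-150983285 (plus strand) for HMGB3, chr1:26472190-26472439 (plus strand) for HMGN2 and chr19:2456997-2457209 (minus strand) for LMNB2. The HMGB1 stretch holds 2 of the 3 CCAAT matches of its window.
HMGB1: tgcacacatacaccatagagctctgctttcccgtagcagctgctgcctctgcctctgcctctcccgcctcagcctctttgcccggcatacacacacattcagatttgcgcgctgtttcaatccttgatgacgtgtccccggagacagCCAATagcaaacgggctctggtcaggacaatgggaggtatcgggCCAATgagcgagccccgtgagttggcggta
HMGB3: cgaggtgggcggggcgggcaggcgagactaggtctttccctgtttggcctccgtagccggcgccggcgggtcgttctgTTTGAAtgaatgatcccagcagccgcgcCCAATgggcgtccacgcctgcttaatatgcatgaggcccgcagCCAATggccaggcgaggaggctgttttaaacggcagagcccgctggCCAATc
HMGN2: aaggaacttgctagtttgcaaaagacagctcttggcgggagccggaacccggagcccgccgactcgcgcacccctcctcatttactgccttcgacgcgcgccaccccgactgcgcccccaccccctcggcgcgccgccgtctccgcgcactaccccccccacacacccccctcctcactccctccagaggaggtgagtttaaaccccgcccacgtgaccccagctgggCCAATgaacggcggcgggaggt
LMNB2: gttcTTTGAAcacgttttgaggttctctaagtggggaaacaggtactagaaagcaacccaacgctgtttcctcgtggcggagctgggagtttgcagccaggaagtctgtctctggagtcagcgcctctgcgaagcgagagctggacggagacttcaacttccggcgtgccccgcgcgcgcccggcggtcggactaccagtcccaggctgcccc

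The genes of the 3 stretches with CCAAT, HMGB1, HMGB3 and HMGN2, had log2 fold changes of -1.53, -1.38 and -1.53 in the authors' deposited table, with overlapping intervals. LBR, without a match, and LMNB1, with CCAAT, were both at -1.06 in the authors' deposited table. The LMNB1 match lies in a window that GENCODE 29 annotates in full as LMNB1 exon. LMNB2, with a CHR match and no CCAAT, fell least, at -0.92 in the authors' deposited table. HMGB2, which fell most, had no window. A link between matches and fold changes was not tested.

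The other HMG family genes that passed fell less than the 4 HMG genes above. Of 7 further HMGA, HMGB and HMGN genes, 4 were listed, a share of 57.1% against 45.3% of all genes tested. All 4 were lower, a direction that 24.0% of all genes tested had. HMGB4, HMGN3 and HMGN4 were not listed, meaning that they missed the threshold or were never tested. Shares of a list, here and below, count all its genes, tested or not, while 45.3% is of tested genes alone. The median of the 4 was -0.35. HMGN5, a nucleosome-binding protein, stood at -0.92 ± 0.103 in the authors' deposited table (adjusted p = 4.52e-18). HMGA1, an AT-hook architectural factor, was at -0.40 ± 0.0783 and its relative HMGA2 at -0.30 ± 0.0890 in the authors' deposited table. HMGN1, a relative of HMGN2, was at -0.27 ± 0.0667 in the authors' deposited table, and HMGN1 minus HMGN2 was 1.26, with bounds of 1.01 and 1.51. With an upward shift of 0.3, HMGA2 and HMGN1 would turn higher.

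Genes with an HMG box outside the HMGB family had 8 of 21 members listed, 6 lower and 2 higher, or 38.1% listed against 45.3% of all genes. The chromatin assembly factor subunit SSRP1 was at -0.82 ± 0.0586, the mitochondrial DNA packaging factor TFAM at -0.75 ± 0.0637 and the rRNA transcription factor UBTF at -0.55 ± 0.0596 in the authors' deposited table. TOX, a nuclear factor of T-cell development, was higher at 2.11 ± 0.579 in the authors' deposited table, an imprecise value. TOX2, of the same list, was lower at -1.12 ± 0.177 in the authors' deposited table. With a downward shift of 0.3, 7 would be lower and 1 higher.

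The A-type lamin went the other way from the B-type lamins. LMNA, which encodes lamins A and C, was higher at 0.42 ± 0.105 in the authors' deposited table (adjusted p = 2.25e-04). LMNA minus LMNB1 was 1.48 with bounds of 1.15 and 1.80, and LMNA minus LMNB2 was 1.34 with bounds of 0.96 and 1.72. With every log2 fold change shifted down by 0.3, LMNA would still be higher, at 0.12. It was singled out after its value had been seen. Of 23 further genes of the lamina and inner nuclear membrane, LMNA included, 13 were listed (56.5%, against 45.3% of all genes), 11 lower and 2 higher. Their median was -0.39. With the upward shift of 0.3, 8 would be lower and 5 higher. TMPO, which encodes the lamina-associated polypeptides, was at -1.75 ± 0.0609 in the authors' deposited table, a larger fall than that of any of the 3 lamina genes above. The inner membrane protein genes NEMP1 (listed as TMEM194A), at -1.44 ± 0.0712, and TMEM201, at -1.09 ± 0.130, followed in the authors' deposited table. TMEM43, an emerin partner, was higher at 0.52 ± 0.0625 in the authors' deposited table. EMD, LEMD2, SYNE1 and SYNE2 were among the 10 not listed.

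B-type lamins are farnesylated, clipped and methylated at their tails. Of 5 genes for lamin tail processing, that of A-type lamins included, 3 were listed, which is 60.0% against 45.3% of all genes tested. All 3 were lower, a direction that 24.0% of all genes tested had. ICMT, which methylates the farnesylated tail, stood at -1.08 ± 0.0674 in the authors' deposited table, beside LMNB1 and LBR. The farnesyltransferase subunit gene FNTB was at -0.52 ± 0.117 and the protease gene RCE1 at -0.41 ± 0.123 in the authors' deposited table. FNTA and ZMPSTE24 were not listed.

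Genes that take the nuclear envelope apart at mitosis or rebuild it had 14 of 19 members listed (73.7%, against 45.3% of all genes tested), 13 lower and 1 higher. Their median was -0.45. With the upward shift of 0.3, 12 would be lower. CDK1, the kinase that phosphorylates lamins at mitosis, was at -2.67 ± 0.0740, PLK1 at -2.61 ± 0.0822 and CCNB1 at -2.13 ± 0.0719 in the authors' deposited table. PRKCB, a kinase that also phosphorylates lamin B, was higher at 0.36 ± 0.0616 in the authors' deposited table. The members fell less than CDK1 and PLK1, and HMGB2 fell about as much as CCNB1.

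LBR and TM7SF2 encode enzymes for the same sterol reduction step, and they moved in opposite directions. TM7SF2 was higher at 1.16 ± 0.162 in the authors' deposited table (adjusted p = 9.23e-12), and TM7SF2 minus LBR was 2.22, with bounds of 1.78 and 2.66. Of 9 genes of the pathway after lanosterol, TM7SF2 included, 7 were listed (77.8%, against 45.3% of all genes tested), 6 lower and 1 higher. The isomerase gene EBP was 2.00-fold lower in the authors' deposited table.

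**Figure D4:**
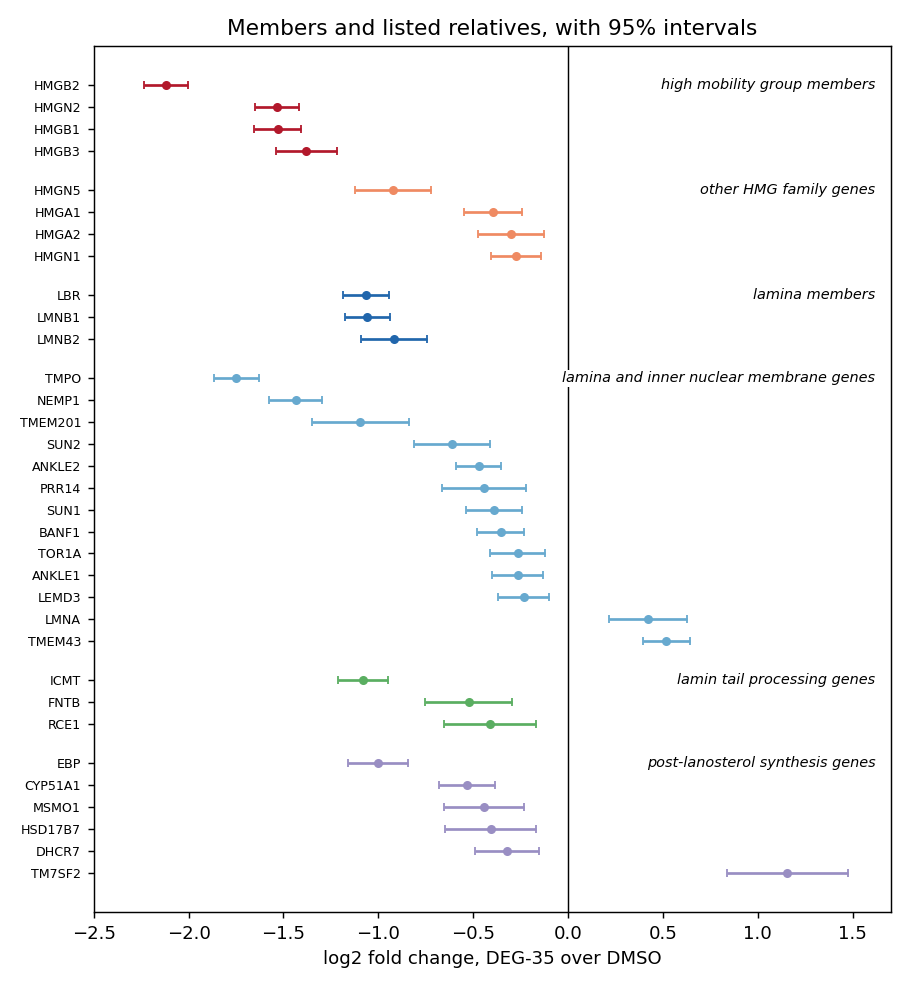
Log2 fold changes (DEG-35 over DMSO) with 95% intervals for the 7 genes and for listed genes of 4 related groups, 1 gene of the post-lanosterol group not being shown. LMNA at 0.42, TMEM43 at 0.52 and TM7SF2 at 1.16 are the genes right of 0.

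Linker histones, which HMGN proteins displace from nucleosomes, had 4 of 8 members listed (50.0%, against 45.3% of all genes tested), 2 higher and 2 lower. The replacement-type gene H1F0 was at 1.03 ± 0.149 and HIST1H1C at 1.38 ± 0.289 in the authors' deposited table, while H1FX was at -0.66 ± 0.152 and HIST1H1E at -1.81 ± 0.738. HIST1H1C and HIST1H1E have close copies elsewhere in the genome, which makes the assignment of their reads uncertain. Among 16 genes, most of them for HMGB1 receptors or for the SET complex, which contains HMGB2, 6 were listed (37.5%, against 45.3%). Of these, 5 were lower and 1 higher. The 16 include GZMA, RAG1 and RAG2, which are of neither kind and were not listed. APEX1, a DNA repair nuclease, was at 0.36 ± 0.0544, and ANP32A at -0.33 ± 0.0580 and SET at -0.36 ± 0.0656 in the authors' deposited table. The HMGB1 receptor gene TLR9 was listed and lower, at -0.56 ± 0.201 in the authors' deposited table. The receptor genes AGER, TLR2 and TLR4 were not listed.

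Cell cycle inhibitors and pocket protein complex genes had 10 of 16 members listed (62.5%, against 45.3% of all genes tested), 9 lower and 1 higher. The higher gene was CDKN1A, a p53 target that inhibits cyclin-dependent kinases, at 1.91 ± 0.0579 in the authors' deposited table. RBL1, a pocket protein that represses cell cycle genes, was at -1.67 ± 0.0856 and the kinase inhibitor gene CDKN2C at -1.12 ± 0.0702 in the authors' deposited table. CDKN2A and CDKN2B, inhibitors much used as senescence markers, were not listed. Secreted and surface factors of senescent cells had 8 of 31 members listed (25.8%, against 45.3% of all genes tested), 4 higher and 4 lower. PLAU, the urokinase gene, was at 1.19 ± 0.0609 and the adhesion gene ICAM1 at 0.48 ± 0.0798 in the authors' deposited table, and IGFBP4, which binds insulin-like growth factors, at -0.92 ± 0.137. IL6, CXCL8, IL1A and IL1B were among the 23 not listed. Any genes never tested are among these 23, and 25.8% counts them while 45.3% does not. The labels give no test of senescence, and these counts do not measure it.

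Condensin and nucleoporin genes were set beside the 7. All 9 genes for condensin subunits and TOP2A were listed and fell, at a median of -1.81, with NCAPH at -2.56 ± 0.0754 and NCAPG at -2.42 ± 0.0727 in the authors' deposited table. TOP2A was at -2.51 in the authors' deposited table with a p of 0 and so no SE. Of 29 nucleoporin genes 26 were listed (89.7%), 25 lower and 1 higher. Of all genes tested, 45.3% passed and 24.0% were lower. The median of the listed nucleoporin genes was -0.58, and 23 of them would be lower with the upward shift of 0.3. NUP107 was at -1.08 ± 0.0680, NUP50 at -0.97 ± 0.0665, NUP188 at -0.81 ± 0.0562 and NUPL2, the higher one, at 0.19 ± 0.0767 in the authors' deposited table. The 7 genes' median of -1.38 lies between the medians of these groups, though HMGB2, at -2.12, lies below both. No difference between groups was tested.

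By likeness of fold change in this 1 comparison, the nearest gene of the 12 lists was CCNB1 for HMGB2, at -2.13 in the authors' deposited table. It was NCAPD3, a condensin subunit gene at -1.45 in the authors' deposited table, for both HMGB1 and HMGN2. For HMGB3 it was LIN9, a subunit of the complex that switches cell cycle genes, at -1.39 ± 0.0891 in the authors' deposited table. ICMT was the nearest to LMNB1 and to LBR, and IGFBP4 to LMNB2. A single comparison gives no pattern over samples, so likeness here means only a similar size of change.

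The 7 genes lie on 6 chromosomes, with HMGN2 and LBR both on chromosome 1, HMGB2 on 4, LMNB1 on 5, HMGB1 on 13, LMNB2 on 19 and HMGB3 on X. Of 13 flanking protein-coding genes in GENCODE 29, 7 were listed (53.8%, against 45.3% of all genes tested), 4 higher and 3 lower, between -0.64 for SAP30 beside HMGB2 and 0.69 for RPS6KA1 beside HMGN2 in the authors' deposited table. Each of these 7 changed less than its neighbour among the members. The flanking genes of HMGB1, HMGB3 and LMNB1 have no value here. MARCH3, next to LMNB1, was left out because the file has symbols of this kind turned into dates. TIMM13 overlaps LMNB2 on the same strand and was not listed. Reads of the HMG genes can also match processed copies. GENCODE 29 names 48 pseudogenes after HMGB1, 36 after HMGN2, 29 after HMGB3 and 1 after HMGB2, none of them listed, and none after LMNB1, LMNB2 or LBR. The labels do not give the treatment of reads that match such copies, and its part in the fold changes was not tested.

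The labelled cell type could not be checked by levels, as the file has none. Of 10 myeloid marker genes 7 were listed (70.0%, against 45.3% of all genes tested), 6 higher and 1 lower, from -0.36 for MPO to 1.57 for CSF1R in the authors' deposited table. EPOR was the 1 listed of 6 erythroid markers, GP1BA the 1 of 5 megakaryocyte markers, and no lymphoid marker of 5 was listed.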

How the data were processed

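Per the labels' protocols, column-purified RNA of MOLM-13 cells, taken 24 h after 50 nM DEG-35 or DMSO, went into SMARTer mRNA libraries, 3 per group. The submitters' processing notes name DESeq2, featureCounts, STAR and hg19, with no versions. Strand use and the handling of copied genes are not given there. The 1 table the authors deposited has, per the file headers, 3 values per gene: log2 fold change, p-value and adjusted p-value. It holds 6831 genes, all with an adjusted p below 0.05. For the 2789 genes with a p above 1e-04, adjusted p times rank over p gave 15064 tests. Depth is unknown.

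Nothing was refitted: the deposited adjusted p-values stand, the plan for a table without libraries. The implied SE is the absolute log2 fold change over the normal quantile of the two-sided p, which assumes a Wald test on unshrunken values. It cannot be had where p is 0 (3 genes). Intervals are 95%. Pairs of genes were compared by bounds built on the sum of their SEs, and lists by counts and medians without a test.

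The members and the 12 lists were chosen with earlier results of these data known. Named genes are the members, for each list the 3 genes of smallest adjusted p plus the first gene against its majority, and the nearest gene by fold change. Some genes that this rule takes are not reported here. LMNA, HMGA2, HIST1H1E, TLR9, TOX2, flanking genes and unlisted genes given by name were chosen after values were seen. List symbols were matched exactly or through RefSeq synonyms (1 gene). Alternatives were an adjusted p of 0.01, a minimum change of 1 on the log2 scale, Bonferroni adjustment, an implied SE of at most 0.2 and shifts of 0.3 either way, since the scaling is unknown. For lists the shifts were added later. GENCODE 29 (GRCh38) served for gene order, exons and pseudogene names. Software was SciPy 1.17.1, NumPy 2.4.6, pandas 2.3.3 and Matplotlib 3.10.9 on Python 3.11.15.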

Additional observations from a re-analysis of the deposited data

How the results depend on the processing

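All 7 genes stayed listed and lower at an adjusted p of 0.01, with Bonferroni adjustment over 15064 tests, with an implied SE of at most 0.2 and with log2 fold changes shifted by 0.3 either way. The deposited values fixed these outcomes in advance. Among the 7, the largest deposited adjusted p was 2.82e-23, the largest implied SE 0.0896 and the smallest fall a log2 fold change of -0.92. With a minimum change of 1 on the log2 scale, 6 stayed. That setting is stricter by construction and cut the list counts as follows. The lower counts became 0 for the other HMG family, 1 for HMG-box genes, 3 for lamina and inner nuclear membrane genes, 1 for lamin tail processing, 5 for envelope breakdown, 1 for linker histones, 0 for HMGB1 receptors and SET complex genes, 1 for post-lanosterol genes, 4 for inhibitors and pocket proteins, 1 for senescence secretory genes and 1 for nucleoporins. For condensin genes and TOP2A the lower count became 8. The higher counts became 1 for HMG-box genes, 2 for senescence secretory genes and 0 for the lamina, envelope breakdown, HMGB1 receptor and nucleoporin lists. At an adjusted p of 0.01 the lower counts were 1 for linker histones and 3 for HMGB1 receptors and SET complex genes, and the higher count was 0 for nucleoporins. At that setting the lower counts were also 8 for inhibitors and pocket proteins and 3 for senescence secretory genes. No paired analysis was possible because the file has no value per library, and for the same reason no library could be left out. The shift of the lists was chosen after seeing the data and touched listed genes alone, so other scaling factors could give other counts.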
